A study of Mus musculus with 10 samples.

Results

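Activator protein 1 (AP-1) is a dimeric transcription factor built from proteins of the Jun family (Jun, Junb, Jund) and the Fos family (Fos, Fosb, Fosl1, Fosl2), and the CpG methylation of the promoters of these 7 genes was described in mouse oocytes. A promoter window met the selection rule when its centre lay within 200 bp of an annotated transcript start of a member in mm10. With RefSeq starts, 6 of the 40537 nuclear windows shared by all tables met it, for 5 genes: Jun, Junb, Fos, Fosl1 (1 window each) and Fosb (2 windows). The 2 Fosb windows are centred 5 bp apart and hold identical calls, so they count as 1 measurement. No window centre lay within 200 bp of the RefSeq start used for Jund or Fosl2. Only 1 start each was used for Jund, Fosb and Fosl2, although RefSeq lists more than 1 transcript for Jund and Fosb. For these, 3 windows centred inside Jund and 1 centred 672 bp upstream of Fosl2 are described as well, together with 1 further window inside Fosb. Each deposited window carries an Ensembl transcript identifier, which was not tied to a gene here, so these 5 windows may also lie at annotated starts of the genes and then would meet the rule. That makes 11 windows, of which 10 are distinct, and all 7 genes are covered.

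The samples were metaphase II oocytes, the mature eggs before fertilisation, from mice of a C57BL6/129 strain background. The labels give 4 libraries from wild-type mice at 2 months of age (called young WT here), 3 from wild-type mice at 11 months (old WT) and 3 from Tet2 knockout mice at 2 months (Tet2KO). Tet2 encodes an enzyme that oxidises 5-methylcytosine. The labels name neither the Tet2 allele nor the number of animals, and they conflict on the input, with 10 oocytes per sample in one place and a single oocyte in another. Methylation was read by low-input bisulfite sequencing, in which a methylated or hydroxymethylated cytosine is still read as cytosine, so that levels cover both forms.

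Each deposited table pools the libraries of a group. A level is the percentage of CpG calls in a 2000 bp window that were methylated, and a difference between levels is given in percentage points. With 1 pooled value per group there is no replicate spread, no test was possible, and a level set by a single library cannot be told apart from one shared by all. Wilson 95% intervals of levels and Newcombe 95% intervals of differences cover counting error only. The 7 genes were selected on the measured methylation levels of these same pools, although the position rule itself uses none, so their levels are a description.

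Depth and the imprinted genes were looked at first. Summed over windows, which can overlap and so count a call more than once, CpG calls were 15046863 for young WT, 30431118 for old WT and 8610762 for Tet2KO. Without the mitochondrial windows these sums were 9392359, 16993859 and 5464356. All member windows had at least 199 calls in every pool. Imprints laid down in the maternal germline are methylated in oocytes and on only the maternal allele in somatic cells. Of 11 measured genes of that list, 8 stood at 75% or more in every pool, at 92.9% to 100% in young WT, 87.2% to 98.0% in old WT and 75% to 100% in Tet2KO. Peg10 was at 65%, 70.1% and 67.9%, while the named windows of Grb10 and Inpp5f were at 2.38% or lower in each pool. The named window of H19, a gene with a paternal imprint, was at 4.21%, 1.61% and 2.5% in the same order. Windows were named by position near a gene, and whether each covers the imprinted region was not checked.

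Jun proteins can pair with each other or with Fos proteins, whereas Fos proteins need a Jun partner to bind DNA. The dimers bind the sequence TGACTCA and related sites, and several of the genes are immediate early genes, transcribed within minutes of a growth factor, stress or hormone signal through MAP kinases. In the ovary, AP-1 genes are known to respond to the ovulatory hormone surge in the granulosa cells that surround the oocyte. Promoters rich in CpG usually stay unmethylated in oocytes, where methylation is laid down mainly over transcribed regions during oocyte growth.

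The bases before the starts of Junb, Jun, Fos and Fosl2 show where methylation could be read in the windows described below. Each sequence holds the 250 bases upstream of a RefSeq start (GRCm38.p6, the assembly of mm10), 5′ to 3′ on the strand of the gene, with every CpG in capitals. Junb lies at chr8:84978749-84978998 on the minus strand, Jun at chr4:95052223-95052472 on the minus strand, Fos at chr12:85473640-85473889 and Fosl2 at chr5:32136222-32136471, both on the plus strand.
Junb: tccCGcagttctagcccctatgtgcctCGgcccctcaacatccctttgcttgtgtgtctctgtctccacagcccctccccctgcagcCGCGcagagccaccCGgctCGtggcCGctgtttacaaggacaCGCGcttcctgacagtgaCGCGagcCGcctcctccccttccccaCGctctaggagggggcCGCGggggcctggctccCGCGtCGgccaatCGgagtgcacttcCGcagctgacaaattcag
Jun: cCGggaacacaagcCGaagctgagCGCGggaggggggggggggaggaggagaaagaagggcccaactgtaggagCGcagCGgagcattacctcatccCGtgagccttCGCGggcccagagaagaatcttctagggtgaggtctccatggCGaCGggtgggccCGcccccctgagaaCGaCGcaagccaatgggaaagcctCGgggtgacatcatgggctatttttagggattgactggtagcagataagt
Fos: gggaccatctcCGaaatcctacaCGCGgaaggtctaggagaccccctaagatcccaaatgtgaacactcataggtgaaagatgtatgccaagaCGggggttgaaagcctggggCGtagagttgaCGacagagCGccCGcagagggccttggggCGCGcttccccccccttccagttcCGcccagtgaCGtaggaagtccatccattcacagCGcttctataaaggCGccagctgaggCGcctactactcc
Fosl2: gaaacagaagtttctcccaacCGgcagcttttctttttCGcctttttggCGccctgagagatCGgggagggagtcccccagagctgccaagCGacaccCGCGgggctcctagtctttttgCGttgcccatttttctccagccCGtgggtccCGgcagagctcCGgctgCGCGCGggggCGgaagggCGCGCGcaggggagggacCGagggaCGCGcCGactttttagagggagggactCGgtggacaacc

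These stretches held 20 CpGs at Junb, 15 at Jun, 15 at Fos and 23 at Fosl2, and the matching stretch of Fosb held 19. The median over 32851 RefSeq promoters was 6. At least as many CpGs as Junb were found in 17.9% of promoters, and at least as many as Jun or Fos in 27.3%. The windows are 2000 bp long and their values are sums or means, so the level of a single CpG printed here is not known. Of the 7 members, 6 had a sequence, but that of Jund lies upstream of all 3 Jund windows. It held 3 CpGs and is not printed.

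Sequence motifs were searched on both strands of the same 250 bases. The AP-1 site TGACTCA (or TGAGTCA), found in 4.46% of promoters, had no match in these members, nor had the cyclic AMP response element TGACGTCA (1.55%). The AP-1-like site TGACATCA (or TGATGTCA, 2.93%) stood 45 bases before the start of Jun. The shorter TGACG (or CGTCA, 17.8%), which is contained in TGACGTCA and holds a CpG, stood 106 bases before the start of Junb, 60 before that of Fosb, and 66 and 129 before that of Fos. A GGGCGG (or CCGCCC) motif, of the kind bound by Sp1, was present in 32.7% of promoters and in Jun, Fos, Fosb and Fosl2. The CCAAT (or ATTGG) motif, present in 33.8%, was found at Jun and Junb, and TATAA (or TTATA), present in 22.8%, at Fos. A match is a stretch of letters and not a shown binding site.

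Most AP-1 windows had methylated calls in young WT and few or none in the other pools, and Junb was the exception. In young WT the order was Jund (63.8% to 68.6% over its 3 windows) and Junb (64.2%), then Jun (37.3%), then the window inside Fosb (12.1%), then the start windows of Fos, Fosl1 and Fosb and the Fosl2 window (8.28% to 8.51%). Junb lay within the range of the Jund windows, the 4 lowest windows had overlapping intervals, and that of the Fosb gene window overlapped each of them. In old WT Junb was at 67.1%, and the other 9 distinct windows were at 0% to 2.36%. In Tet2KO Junb was at 26.6%, and the others were at 0% to 1.13%. The median over all shared windows was 3.23%, 2.72% and 2.17% in young WT, old WT and Tet2KO.

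**Figure D1:**
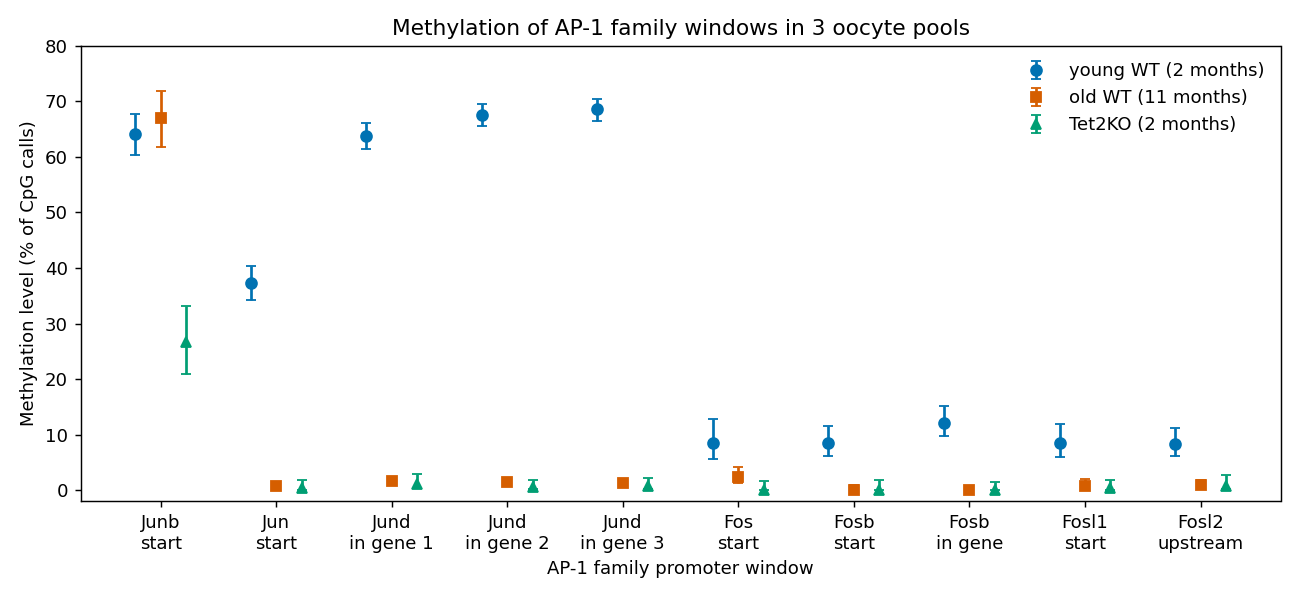
Methylation level (percent of CpG calls, vertical axis) of 10 distinct AP-1 windows (horizontal axis) in the 3 pools. Points are pooled levels and bars Wilson 95% intervals for counting error. In old WT and Tet2KO every window but Junb sits at 2.36% or lower, while in young WT the Jun family windows sit at 37.3% to 68.6%.

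Junb encodes a Jun protein that often restrains the growth-promoting activity of Jun. Its window (chromosome 8, 84977719 to 84979718, mm10) spans the start of the gene, 30 bp from the window's centre. In young WT, 403 of 628 calls were methylated, a level of 64.2% (60.3 to 67.8). In old WT, 220 of 328 calls were methylated, at 67.1% (61.8 to 71.9). In Tet2KO, 53 of 199 calls were methylated, at 26.6% (21.0 to 33.2). The WT pools thus had overlapping intervals and the Tet2KO pool lay below both.

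The Tet2KO minus young WT difference at Junb was -37.5 points (-44.3 to -30.0), and the Tet2KO minus old WT difference was -40.4 points (-47.9 to -32.0). The age difference, old minus young WT, was 2.90 points (-3.50 to 9.09). The deposited fraction, which averages the methylated share over covered CpG positions and so gives each position the same weight, put Junb at 56.9%, 72.1% and 22.3% in young WT, old WT and Tet2KO. By that measure the age difference was 15.2 points, so its size depends on the measure. Tet2KO was the lowest pool by both. Of 14804 CpG-dense windows, defined here as those with 80 or more covered positions in at least 1 pool, Tet2KO was 20 points or more below both WT pools at 7 (0.0473%), Junb among them, against 0.688% of all shared windows. Levels of 60% or more in such windows were found at 0.912% in young WT, 0.865% in old WT and 0.973% in Tet2KO.

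Jun encodes the founding member of the family, a strong activator of cell cycle genes. Its window (chromosome 4, 95051223 to 95053222) is centred on the RefSeq start. Methylated calls were 355 of 951 in young WT, a level of 37.3% (34.3 to 40.4). They were 8 of 1129 in old WT, at 0.709% (0.359 to 1.39), and 1 of 296 in Tet2KO, at 0.338% (0.0597 to 1.89). The young WT pool stood far above the other pools, whose intervals overlapped.

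The Jun differences from young WT were -36.6 points (-39.8 to -33.5) at 11 months and -37.0 points (-40.1 to -33.6) in Tet2KO. By the deposited fraction the levels were 30.8%, 0.629% and 0.192% in young WT, old WT and Tet2KO. An age difference at least as negative was found at 291 of all shared windows and at 48 of the CpG-dense ones, counts that include Jun itself, and for Tet2KO the counts were 355 and 47. Jun, unlike Junb, had its high level in young WT alone.

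Jund encodes the Jun protein that is expressed most constantly in many tissues. Its 3 windows overlap each other by 868 to 1609 bp and share calls, so they are not independent. Their centres lie 1209, 1950 and 2341 bp downstream of the RefSeq start used, inside the gene (chromosome 8, 70697739 to 70700616). The first (70697949 to 70699948) had 1056 of 1656 calls methylated in young WT (63.8%), 32 of 1938 in old WT (1.65%) and 4 of 354 in Tet2KO (1.13%). The second (70698690 to 70700689) was at 67.6%, 1.5% and 0.604% in the same order, from 2120, 2138 and 497 calls. The third (70699081 to 70701080) was at 68.6%, 1.26% and 0.759%, from 2048, 1910 and 395 calls.

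Jund thus showed the widest range of the family, and in each window the young WT pool stood above the others. Age differences ran from -67.3 to -62.1 points and Tet2KO differences from -67.8 to -62.6. By the deposited fraction the young WT levels were 57.5%, 63.4% and 64.1%, and no level in the other pools was above 1.76%. At the third window, 55 shared windows, itself included, had an age difference as negative and 69 a Tet2KO difference as negative.

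Fos encodes the protein that, with Jun, forms the classical AP-1 dimer. Its window (chromosome 12, 85472890 to 85474889) had 20 of 235 calls methylated in young WT, at 8.51% (5.58 to 12.8). It had 12 of 509 in old WT, at 2.36% (1.35 to 4.08), and 0 of 234 in Tet2KO, which allows a level of up to 1.28% at a limit of 3 counts of the total (the Wilson upper bound, drawn in the plot of levels, is 1.62%). All 3 pools were low, with young WT highest. Differences from young WT were -6.15 points (-10.5 to -2.75) at 11 months and -8.51 points (-12.8 to -5.16) in Tet2KO. The deposited fraction put Fos in young WT at 12.9%.

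Fosb, whose truncated protein form is known from lasting responses in neurons, had a start window at chromosome 7, 19309047 to 19311046. Methylated calls were 36 of 426 in young WT, at 8.45% (6.17 to 11.5), 0 of 456 in old WT and 0 of 216 in Tet2KO. At the same limit of 3 counts, these allow levels of up to 0.658% and 1.39% (Wilson upper bounds 0.835% and 1.75%). The window centred 445 bp into the gene (19308601 to 19310600), which overlaps the start window by 1554 bp, had 67 of 553 calls methylated in young WT, at 12.1% (9.65 to 15.1). It had 0 of 558 in old WT and 0 of 270 in Tet2KO, which allow up to 0.538% and 1.11% (Wilson upper bounds 0.684% and 1.40%). Methylated calls at Fosb were thus found in young WT and not in the other pools at these depths.

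Fosl1 encodes Fra-1, which like Fosl2 lacks the activation domain of Fos. At its window (chromosome 19, 5446703 to 5448702) 28 of 331 calls were methylated in young WT, at 8.46% (5.92 to 12.0). The other pools had 3 of 454 in old WT, at 0.661% (0.225 to 1.92), and 1 of 297 in Tet2KO, at 0.337% (0.0595 to 1.88). Fosl2 encodes Fra-2, and its upstream window (chromosome 5, 32134801 to 32136800) had 39 of 471 calls methylated in young WT, at 8.28% (6.12 to 11.1). There were 10 of 1026 in old WT, at 0.975% (0.530 to 1.78), and 2 of 264 in Tet2KO, at 0.758% (0.208 to 2.72). Both genes had their highest level in young WT, with intervals above those of the other pools.

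Counted over the 6 windows at RefSeq starts, 1 (Jun) was lower by 20 points or more at 11 months and 0 were higher. Among all shared windows 2.76% were that much lower and 2.78% higher, and among CpG-dense windows 1.39% and 0.473%. In Tet2KO against young WT, 2 of the 6 (Jun and Junb) were lower and 0 higher, against 3.22% and 3.29% of all shared windows and 1.6% and 0.621% of CpG-dense ones. With the windows in or near the genes the lower counts were 4 and 5 of 11 (10 distinct). In Tet2KO against old WT, 1 of the 6 (Junb) was lower and 0 higher, against 1.94% and 2.09% of all shared windows and 0.372% and 0.405% of CpG-dense ones. The comparisons with young WT share that pool, and they are given side by side for that reason. No count is read as particular to the family, since the members were chosen with these values known.

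A smaller step shows the rest of the family. In 5 of the 6 windows at RefSeq starts, young WT was above each of the other pools by 5 points or more, and in 10 of all 11, Junb being the exception. With the 2 identical Fosb windows counted once, these were 4 of 5 and 9 of 10. That held at 11.6% of all shared windows and at 11.6% of CpG-dense windows. By 20 points or more it held at 1 of the 6 (Jun) and 4 of the 11 (Jun and Jund), against 1.9% of all shared and 1.22% of CpG-dense windows. The median difference over the 6 windows was -8.12 points for age and -8.48 for Tet2KO, against medians over all shared windows of 0 and -0.241 points. Between Tet2KO and old WT it was -0.347 points, close to the -0.394 over all shared windows and -0.410 over CpG-dense ones. Of the 6 windows, 4 were lower in Tet2KO and the 2 of Fosb were equal at 0%, while 22665 of the 40537 shared windows were lower. Over the 5 distinct windows these medians were -7.80, -8.51 and -0.371 points.

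Depth moved with these levels in part. CpG-dense windows had a median of 3.41 calls per covered position in young WT, 6.14 in old WT and 2.45 in Tet2KO. The Jund windows had 10.2 to 11.8 calls per covered position in young WT, 2.98 to 3.45 times that median, 1.67 to 1.81 times it in old WT, and 0.981 to 1.20 times it in Tet2KO. At Jun the ratios were 1.88, 1.11 and 0.928, and at Junb 1.63, 0.460 and 0.977. The 5 Fos family windows lay at 0.775 to 1.18 times the median in young WT, 0.618 to 0.856 in old WT and 0.911 to 1.33 in Tet2KO. The Jun family windows were therefore covered more deeply, relative to other CpG-dense windows, in young WT than in either other pool. The part of depth in the levels was not tested. In raw depth the Jund windows had 1656 to 2120 calls in young WT and 1910 to 2138 in old WT.

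**Figure D2:**
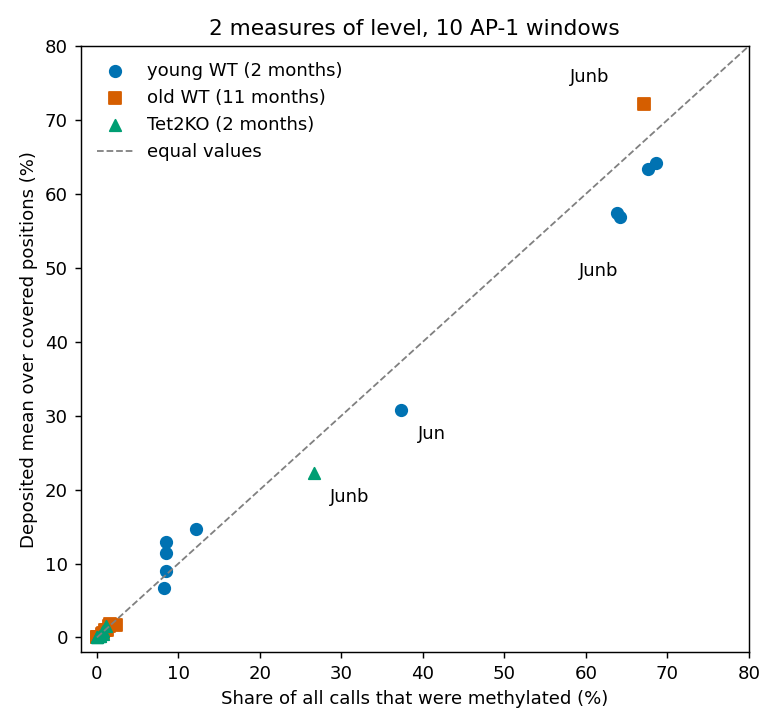
Share of methylated calls (horizontal axis, percent) against the deposited mean over covered positions (vertical axis, percent) for the 10 distinct AP-1 windows in each pool, with a dashed line of equal values. The Jun and Jund points of young WT lie below the line, Junb lies below it in young WT and above it in old WT, and Fos in young WT lies above it at 12.9% against 8.51%.

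Most windows next to the Jun family members were at other levels. The nearest named neighbours of Junb were Prdx2, a peroxiredoxin gene, 8.95 kb away on the side of lower coordinates, and Hook2, a microtubule linker gene, 11.9 kb away on the other. All 5 Prdx2 windows were at 0.629% to 5.95% in young WT, 1.35% to 4.38% in old WT and 1.42% to 3.36% in Tet2KO. Hook2 was at 2.51%, 10.0% and 0%. Beyond Prdx2, Rnaseh2a, for a subunit of ribonuclease H2, had a window at 42.7%, 31.5% and 42.3% (124, 254 and 52 calls), and by the deposited fraction at 49.6%, 36.8% and 34.6%. Within 100 kb of Junb, 3 of 34 other windows were lower by 20 points or more in Tet2KO than in young WT: 2 overlapping windows named for Gcdh and Gm39213 (96.6% of 58 calls, 78.3% of 92 and 55.3% of 38) and Klf1, an erythroid factor gene (37.5%, 11.5% and 16.0%), which was also the 1 lower with age. By the deposited fraction Klf1 was at 36.0%, 26.5% and 21.7%, short of 20 points in either comparison. The windows of Gcdh and Gm39213 were then at 96.8%, 75.7% and 59.6%, lower by 20 points or more in both. By the share of calls 3 windows were higher with age, 2 of Best2 and an unnamed window, each from 45 or fewer old WT calls. Windows can overlap, so these counts can hold the same calls more than once.

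Around Jund, 0 of 27 other windows within 100 kb were lower by 20 points or more in either comparison with young WT, and 3 were higher in Tet2KO, Lrrc25 (25% of 24 calls) and 2 overlapping windows of Ifi30 (50% of 70 calls each). The nearest named neighbours were Lsm4, an RNA-binding protein gene (6.70%, 5.23% and 10.7% in young WT, old WT and Tet2KO), and Gm3336 (2.99%, 1.38% and 2.70%). Near Jun, the lncRNA gene Junos, 23.6 kb away, was at 1.39%, 3.68% and 4.50%, and the window shared by Gm12694 and Mysm1, a histone deubiquitinase gene, at 7.58%, 3.10% and 4.63%. The high young WT level at Jund and Jun was thus not seen at the next named windows. An unnamed window 3.77 kb beyond Jund was at 12.9% of 31 calls, 5.71% of 70 and 2.86% of 35.

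Fosl1 had neighbours that were also highest in young WT. Ccdc85b, 9.70 kb away, was at 15.5% in young WT, 1.47% in old WT and 1.86% in Tet2KO, and the window shared by AI837181 and Drap1, on the other side, at 17.8%, 9.02% and 4.74%. Of 24 windows within 100 kb of Fosl1, 7 had young WT above both other pools by 5 points or more, against 11.6% of all shared windows. Of these 7, 6 lie around Drap1 and overlap, so they share calls. That pattern also held at 6 of 34 windows around Junb, 3 of 27 around Jund and 1 of 7 around Jun. For Fosb it held at 2 of 26, for Fos at 0 of 1 and for Fosl2 at 0 of 3. Around Jund these included overlapping windows named for 2010320M18Rik and Pik3r2, at 17.9%, 3.42% and 4.52%. Fosb lay between Gm26802 (1.56%, 2.17% and 3.57%) and Ercc1, a DNA repair endonuclease gene (0%, 0.485% and 0%). Of 26 other windows within 100 kb of Fosb, 2 were lower by 20 points or more with age and 1 in Tet2KO. The 2 are unnamed and overlap, at 80.8%, 44.6% and 61.6%, and by the deposited fraction at 80%, 60.8% and 59.8%. The 1 lower in Tet2KO, also unnamed, was at 90.8%, 96.8% and 63.6%, the last from 11 calls. For Fos the single other window within 100 kb was that of Tmed10, a vesicle transport gene, at 1.78%, 1.54% and 0%. Fosl2 had a named window on 1 side, Gm36783, at 22.5%, 32.3% and 57.9%.

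**Figure D3:**
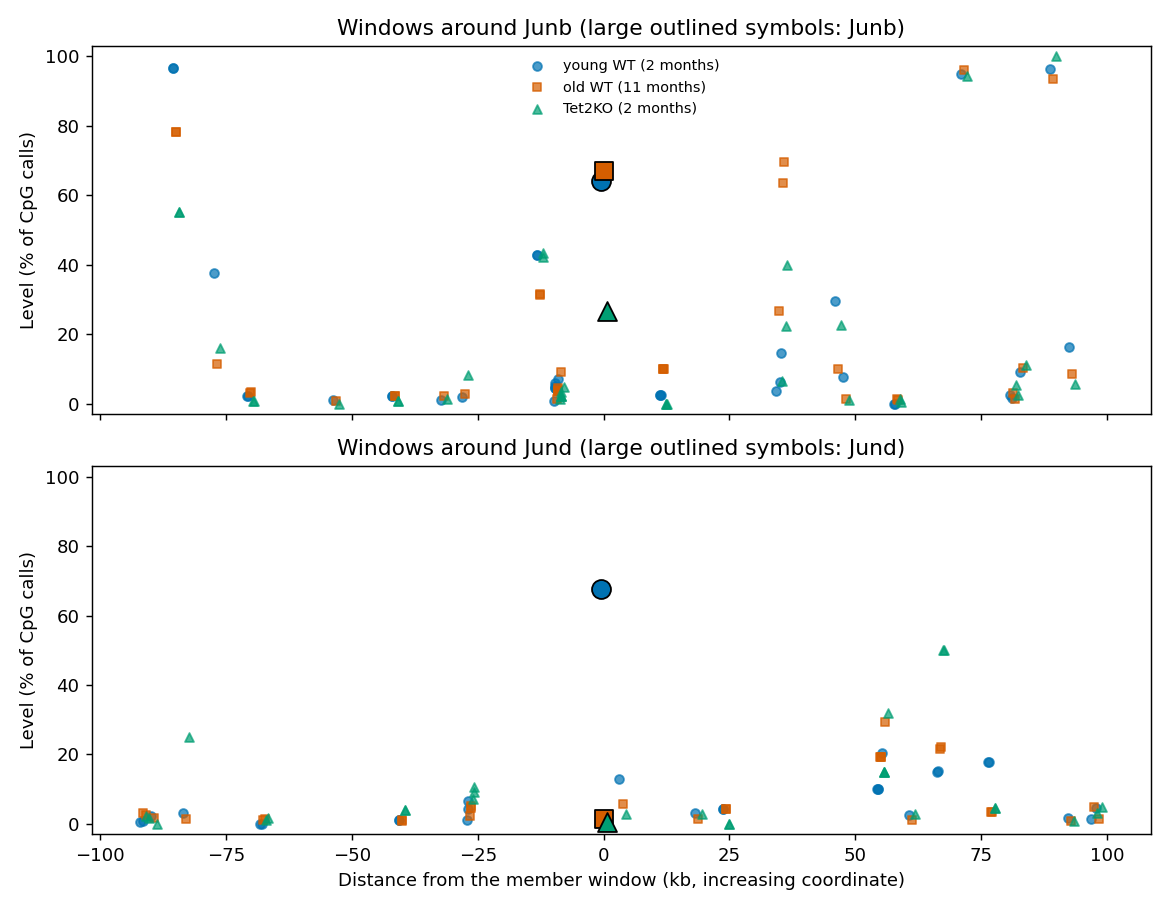
Methylation level (percent of CpG calls, vertical axis) of windows within 100 kb of Junb (top) and Jund (bottom) by distance in kb, with the member drawn as large outlined symbols (for Jund the second of its 3 windows). Symbols of a window are set slightly apart so that pools can be seen. The Junb symbols of both WT pools stand above the Prdx2 and Hook2 windows next to them, and around Jund the young WT symbol of Jund is the highest in the panel.

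The named windows nearest to Junb over the 3 pools, by Euclidean distance between levels among 18857 named windows covered by 50 or more calls in each pool, were those of Krt7, Timm8a1, Il27ra, Ralgapa2 and Nudt17. Krt7, a keratin gene of simple epithelia, was at 58.6%, 66.8% and 28.8% in young WT, old WT and Tet2KO, 6.0 points from Junb. Timm8a1, for a mitochondrial import chaperone, was at 66.2%, 61.5% and 25.2%, and Il27ra, a cytokine receptor gene, at 66.7%, 61.3% and 24%. Ralgapa2 lay 10.1 points away and Nudt17 17.0 points. Likeness over 3 pooled values is a description only.

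The wider pathway was described through 5 lists with 94 genes that had a named window. By 20 points or more, 0 of these were higher and 3 lower with age, against 2.78% and 2.76% of all shared windows. In Tet2KO 1 was higher and 3 lower, against 3.29% and 3.22%. In both comparisons the 3 lower genes were the immediate early genes Egr1, Ier5 and Ccn1. By the deposited fraction 2 immediate early genes were lower in each, Ier5 and Ccn2 with age and Ier5 and Egr1 in Tet2KO. By that measure 1 AP-1 target gene, Mmp14, was also lower with age, at 23.6% in young WT and 2.32% in old WT. The lists of other bZIP partners (21 genes), upstream kinases and activators (23) and regulators of AP-1 proteins (8) had 0 windows past 20 points in either comparison. Their medians were -0.491, 0.298 and 0.0844 points for age and -1.28, -0.596 and 0.426 for Tet2KO.

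Immediate early genes, which share their rapid induction with Fos and Junb, had a median difference of -2.70 points for age and -2.25 for Tet2KO over 26 genes. In 10 of them (38.5%) young WT was above both other pools by 5 points or more, against 11.6% of all shared windows. These were Egr1, Ier5, Ccn1, Ier2, Dusp1, Gadd45b, Ier3, Klf4, Myc and Dusp6, at 6.08% to 29.6% in young WT, 0% to 6.22% in old WT and 0% to 1.97% in Tet2KO. The same held at 4 of 16 AP-1 target genes, 1 of 21 other bZIP partners, 1 of 23 upstream kinases and activators and 0 of 8 regulators. Over the 5 lists together it held at 16 of 94 genes. Egr1, a zinc finger factor induced with Fos, was at 29.6% of 678 calls, 6.22% of 1318 and 1.78% of 394. Ier5 was at 29.0% of 930 calls, 1.88% of 904 and 1.86% of 215, and Ccn1, for a matrix signalling protein, at 25.4% of 512, 1.86% of 376 and 1.97% of 152.

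The other 16 immediate early genes were at 0% to 12.3% in young WT. The list thus held both genes that, like Jun, were highest in young WT and genes at a low level in every pool, such as Klf6 (0%, 0.485% and 0%) and Btg2 (0.333%, 0.520% and 0.485%). Whether it differs from other genes was not tested.

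**Figure D4:**
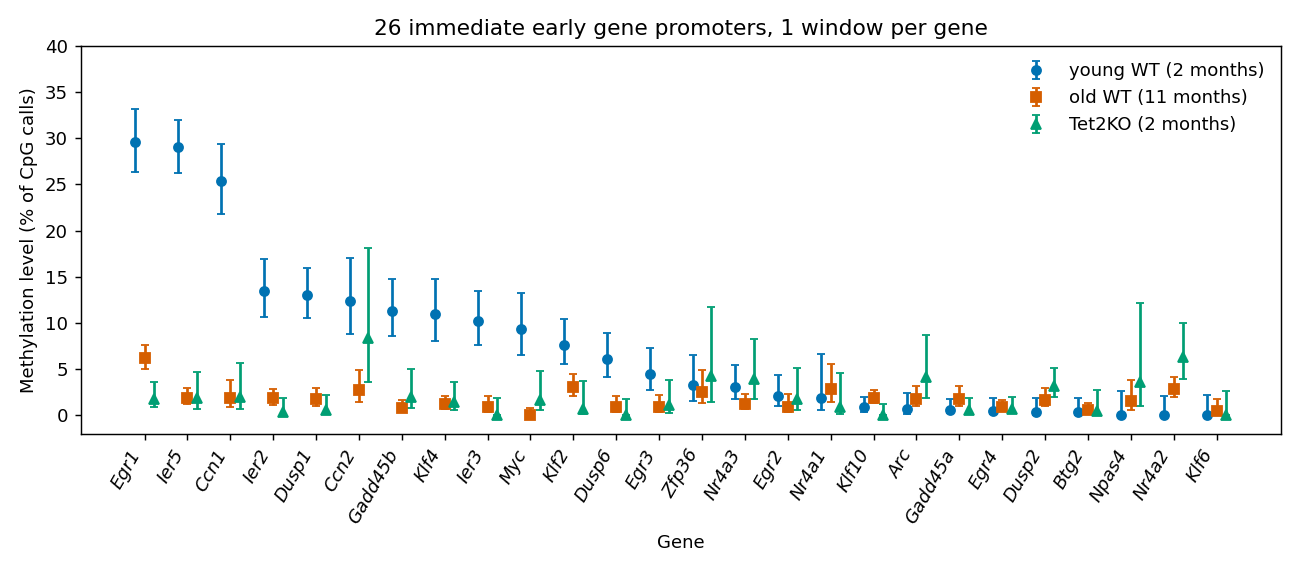
Methylation level (percent of CpG calls, vertical axis) of 26 immediate early genes, ordered by young WT level, in the 3 pools; bars are Wilson 95% intervals for counting error. Egr1, Ier5 and Ccn1 stand at 25.4% to 29.6% in young WT and at 6.22% or lower in the other pools.

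Among the partners of AP-1, Atf4, the stress-response bZIP factor, was at 10.5%, 1.19% and 3.44% in young WT, old WT and Tet2KO. Atf6, of the unfolded protein response, was at 0%, 2.79% and 9.09%, the last from 44 calls, and Creb3 at 16.3%, 10.9% and 14.4%. Among the activators, Srf, which drives Fos transcription, was at 10.1%, 2.64% and 9.44%, Mapk3, the kinase ERK1, at 1.05%, 7.61% and 4.55%, and Map2k1, its activating kinase, at 7.07%, 1.51% and 0.952%. Of the regulators, Ncor1, a corepressor, was at 13.8%, 19.9% and 24.1%, Crebbp, an acetyltransferase coactivator, at 7.43%, 5.07% and 2.06%, and its relative Ep300 at 7.17%, 2.24% and 3.10%. No direction was common to all of these genes.

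Of 16 measured AP-1 target genes, 1 was past 20 points, Timp1, an inhibitor of matrix metalloproteinases, at 26.9% of 67 calls, 17.4% of 115 and 50% of 18. Ccnd1, the cyclin D1 gene, was at 15%, 0% and 2.34%, and Il6, a cytokine gene, at 14.8% of 27 calls, 9.52% of 42 and 0% of 13. The Timp1 and Il6 values in Tet2KO rested on 18 and 13 calls, few for either level.

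Granulosa and cumulus cell genes, markers of the cells that surround the oocyte, were followed beside these results. Of 10 measured, 0 were lower by 20 points or more with age and 1 (Ptx3) in Tet2KO, and 3 had young WT above both other pools by 5 points or more: Ptx3 (20.4%, 1.93% and 0%), Ptgs2 (9.17%, 0% and 0%) and Has2 (7.14% of 14 calls, 0% and 0%). That pattern held at 11.6% of all shared windows. Lhcgr, the luteinising hormone receptor gene, was highest in Tet2KO, at 10.5%, 15.8% and 28.1% (143, 152 and 57 calls). Their median level was 8.16% in young WT, 1.59% in old WT and 1.39% in Tet2KO. Star and Amh were at 91.7% to 100% in all pools. Of 9 measured oocyte genes, 1 had young WT above both other pools by 5 points or more, Gdf9 (15.8%, 2.04% and 0%). The median level of the oocyte genes was 1.92%, 2.5% and 0%. The part of other cells in the AP-1 levels was not tested.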

How the data were processed

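Per the labels' protocols, metaphase II oocytes were bisulfite sequenced at low input. The submitters' processing notes list Trimmomatic, Bismark (version field 12.5) and mm10 and say nothing of their roles; further steps were not given in the sources used. The authors deposited 1 table per group, with the libraries pooled. The deposited counts are methylated CpG calls per 2000 bp window, and the deposited coverage is the number of all CpG calls there; the column of unmethylated calls was not used. The deposited fraction is the mean methylated share over covered positions, and a further column counts those positions. Listed windows have at least 10 calls and 5 positions. In the young WT table the final line is cut short and was left out.

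Levels, Wilson and Newcombe intervals were computed with Python 3.11.15, pandas 2.3.3 and statsmodels 0.14.6, and the differences and intervals were tested on simulated data. No model was fitted, since values were pooled. Comparisons used windows listed in all 3 tables, without mitochondrial ones. Windows were named by position, within 200 bp of a RefSeq start (GRCm38.p6) or, for genes with no promoter entry such as Fosl1, of either gene end; 66.9% received a name. RefSeq promoter sequences matched 6 of 7 members. For lists, each gene was given by a single window, chosen for the highest minimum of calls over the pools.

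The members and lists were chosen with earlier results of these data known. Named genes are all members, the 3 genes of each pathway list with the largest difference from young WT, the 5 windows most like Junb and the nearest named neighbours, beside the marker genes; all other genes were named after their values were seen. Alternatives were the deposited fraction, at least 50 calls, 10 or 30 points, 1 window per gene, a distance of 500 bp and, added after seeing the data, windows in or near the gene.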

Additional observations from a re-analysis of the deposited data

How the results depend on the processing

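By the deposited fraction, 23 of 30 member levels stayed within their counting interval and 7 moved: in young WT to 30.8% at Jun, 56.9% at Junb, 57.5%, 63.4% and 64.1% at Jund and 12.9% at Fos, and in old WT to 72.1% at Junb. The median difference over the 6 windows moved to -11.3 points for age and -12.2 for Tet2KO. Counts of members lower by 20 points were 1 for age and 2 for Tet2KO, and were the same at 10 and 30 points, with at least 50 calls, with 1 window per gene, at 500 bp and by the fraction. With windows in or near the gene as well, which adds windows by construction, they were 4 and 5, and young WT was above both pools by 5 points at 10 windows. In the lists, the fraction moved the medians of immediate early genes to -0.783 (age) and -1.24 (Tet2KO), their counts of lower genes from 3 to 2 in both comparisons, and the AP-1 target genes past 20 points to 1 lower with age and 0 higher in Tet2KO. With at least 50 calls that last count was also 0. The median for age of the regulators was then 1.78 over the 7 genes left, without Fbxw7 (28 calls in young WT, an age difference of -2.90 points). Why the fraction moved the other values was not tested. No paired analysis was possible because the columns hold pooled values per group and carry no replicate number, and for the same reason no library could be left out. Levels near 0 are limited by depth, most in Tet2KO.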

Other observations

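The CpG-dense windows at which Tet2KO was 20 points or more below both WT pools were 7. Besides Junb they lay at Midn (51.4% in young WT, 48.6% in old WT and 28.5% in Tet2KO), at a window named for Gm7008 and Ifrd1 (51.0%, 43.1% and 21.7%) with 2 unnamed windows that overlap it, and at 2 unnamed windows on chromosome 6. The 2 on chromosome 6 overlap each other and, at 74.3% and 71.1%, were above Junb in young WT. Junb, at 67.1%, had the highest old WT level of these 7. Midn rested on 74 calls in young WT, against 628 at Junb. By the deposited fraction Midn was at 49.6%, 51.7% and 29.5%. The window of Gm7008 and Ifrd1 was then at 49.6%, 43.8% and 25.6%. By that measure it, the windows that overlap it and those on chromosome 6 were less than 20 points below old WT in Tet2KO.

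The named windows nearest in level to the third Jund window were Sap18b (73.5%, 1.28% and 3.97% in young WT, old WT and Tet2KO), Prex2 (76%, 0.861% and 2.30%), Fth1, the ferritin heavy chain gene (57.7%, 1.62% and 1.32%), Prm2, a sperm chromatin protein gene (80.3%, 0.971% and 1.33%), and 1700092M07Rik (67.9%, 12.0% and 8.16%). At Fth1 the calls were 1157, 801 and 151.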
